A study of Mus musculus with 20 samples.

Results

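The unfolded protein response and the chaperones of the endoplasmic reticulum were followed through 10 genes, Xbp1, Hspa5, Hsp90b1, Dnajb9, Dnajc3, Sdf2l1, Herpud1, Edem1, Pdia4 and Calr, in mouse dendritic cells and their progenitors. The members were all probe sets that carry 1 of these 10 gene symbols on an Affymetrix whole-genome mouse array, 25 of 45037 probe sets that are not array controls. A probe set is a group of short probes against 1 transcript, most of them near its 3′ end. RNA from C57BL/6 bone marrow cells was hybridised to 20 arrays, 2 for each of 10 groups.

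The groups were plasmacytoid dendritic cells (pDC) and conventional dendritic cells (cDC), both differentiated in culture from amplified progenitors, common dendritic cell progenitors isolated from bone marrow (in vivo CDP), common dendritic cell progenitors amplified in culture (CDP), and multipotent progenitors amplified in culture (MPP). A second series held cultured CDP without treatment (0 h) and after 4, 8, 12 and 24 h with TGF-β1. No genotype other than the strain is given, and the sources used here give neither the TGF-β1 dose nor the numbers of mice and cultures. Nothing says that the 2 arrays of a group came from separate animals or cultures, so the p-values reflect array-to-array spread, which may be technical. The treated cultures have no untreated culture of the same age, so TGF-β1 and time in culture cannot be told apart.

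All values are log2 values as the authors deposited them after GCRMA normalisation, and a difference is a difference of log2 means with its standard error (SE) from limma. The first 10 arrays share 1 scale and the 10 TGF-β1 arrays another, so levels were compared within each set only. Only probe sets above 5 on 2 or more arrays entered a test, and a probe set was called when its adjusted p (limma, Benjamini-Hochberg over all probe sets tested) was under 0.05. Of the 25 member probe sets 24 were tested. The exception, Pdia4 1450620_at, lay at 2.25 on all 10 cell type arrays and under 5 on all TGF-β1 arrays. Where a gene has several probe sets, the one with the highest mean over the arrays of the fit is its lead probe set. With 2 arrays a group, values often do not overlap between groups without a call. At 8 h of TGF-β1, where 0 members were called, 11 of 24 member probe sets did not overlap with 0 h. The share of all probe sets without overlap was not computed for any comparison.

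Proteins bound for the cell surface or for secretion fold in the endoplasmic reticulum. When unfolded proteins gather there, the sensor IRE1 splices the Xbp1 mRNA into the form that encodes the active transcription factor, and XBP1 together with ATF6 raises genes for chaperones, folding enzymes and the degradation of misfolded proteins. Plasmacytoid dendritic cells are known for secreting large amounts of type I interferon, and XBP1 is known to be needed for dendritic cells to develop in mice. The probe sets measure the sum of spliced and unspliced Xbp1 mRNA, so no value here is a measure of splicing. In bulk RNA, fewer cells of a type and less RNA per cell cannot be told apart.

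Markers of the labelled cells were set beside the members. All 7 cDC markers lay above 5 on both cDC arrays, with a mean level of 11.18 and 10.66 there, against 3.49 to 4.62 on the CDP arrays. Of 7 pDC markers 6 lay above 5 on both pDC arrays, with a mean level of 12.49 and 12.21, against 5.03 to 5.86 on the CDP arrays, while cDC stood between, at 8.29 and 8.47 with the same number of pDC markers above 5. The 6 progenitor markers do not separate the groups by presence: all lay above 5 on both arrays of in vivo CDP and MPP, 5 on those of cDC and of CDP, and 4 on those of pDC, and their mean level was 6.72 and 7.38 on the pDC arrays, against 9.45 and 9.53 on the CDP arrays. Plasma cells are the cells best known for a high level of XBP1, and of 9 B cell and plasma cell markers 1 lay above 5 on both pDC arrays and 7 lay under 5 on both. The array's own Gapdh control, given as its 3′ minus its 5′ probe set, lay between -0.21 and 0.30 on the 8 arrays of pDC, cDC, CDP and MPP and at 0.98 and 0.47 on the in vivo CDP arrays. In the TGF-β1 set it lay at 2.09, 2.61 and 2.78 on replicate 1 of 4, 12 and 24 h, and between 0.01 and 0.10 on the other 7 arrays. These 3 arrays have low 5′ signal, and the member values that moved most are given with and without them. Without them 4, 12 and 24 h hold 1 array each, and the spread comes from the pairs of 0 h and 8 h only. Member differences without them are therefore given without a p-value or a call. The array's β-actin control, also 3′ minus 5′, lay at 1.91 and 2.04 on the MPP arrays and at 1.23 and 2.11 on the CDP arrays. It lay between 0.69 and 0.94 on the cDC and pDC arrays, and at 1.39 and 1.09 on the in vivo CDP arrays. On the 3 TGF-β1 arrays of low 5′ signal it lay between 1.89 and 2.11, and on the other 7 between 0.19 and 0.35.

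The ER stress elements that XBP1 and ATF6 are known to bind were searched for in the promoters of the 10 genes. The promoters are RefSeq's on GRCm38.p6, 300 bases that run from 250 before the start of the transcript to 50 bases after it, and all 10 genes matched. The ER stress element ERSE (CCAAT, 9 bases of any kind, CCACG, on either strand) was found in 4 of the 10 member promoters and in 0.119% of all 32851 promoters of the table. The related ERSE-II (ATTGG, 1 base, CCACG) was found in 1 member promoter and in 0.0365% of all promoters. The site TGACGTGG was in no member promoter and in 0.676% of all promoters, and its core ACGTGG, which overlaps any TGACGTGG, was in 3 member promoters and in 8.31% of all. The matches are shown 5′ to 3′ on the strand that carries the element, with its fixed bases in capitals.
Hspa5: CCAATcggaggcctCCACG
Hsp90b1, far site: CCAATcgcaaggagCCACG
Hsp90b1, near site: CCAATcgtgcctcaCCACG
Dnajc3: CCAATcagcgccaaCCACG
Calr: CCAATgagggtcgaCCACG
Herpud1, ERSE-II: ATTGGgCCACG

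The Hspa5 site lay 65 to 47 bases before the start, that of Dnajc3 105 to 87, that of Calr 162 to 144 and the ERSE-II of Herpud1 52 to 42. Hsp90b1 had its sites at 212 to 194 and at 107 to 89 bases before the start. The 3 promoters of genes that were higher in pDC and hold a full element, and that of Hspa5, which was not, are printed on the strand of the gene with the elements in capitals. They are Hsp90b1 (chr10:86705395-86705694, minus strand), Dnajc3 (chr14:118937682-118937981, plus strand), Herpud1 (chr8:94386179-94386478, plus strand) and Hspa5 (chr2:34771840-34772139, plus strand).
Hsp90b1: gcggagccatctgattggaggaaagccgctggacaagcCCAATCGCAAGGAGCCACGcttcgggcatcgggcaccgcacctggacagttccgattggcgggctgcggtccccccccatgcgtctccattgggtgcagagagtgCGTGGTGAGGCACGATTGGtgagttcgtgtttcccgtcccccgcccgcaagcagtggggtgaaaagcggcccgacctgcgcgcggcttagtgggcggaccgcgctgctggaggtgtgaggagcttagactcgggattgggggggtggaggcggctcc
Dnajc3: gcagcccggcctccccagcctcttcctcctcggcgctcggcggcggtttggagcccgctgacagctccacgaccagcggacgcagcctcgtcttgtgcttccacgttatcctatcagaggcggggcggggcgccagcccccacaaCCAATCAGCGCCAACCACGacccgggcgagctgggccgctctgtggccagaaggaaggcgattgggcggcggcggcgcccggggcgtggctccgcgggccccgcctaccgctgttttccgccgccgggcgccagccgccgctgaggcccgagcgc
Herpud1: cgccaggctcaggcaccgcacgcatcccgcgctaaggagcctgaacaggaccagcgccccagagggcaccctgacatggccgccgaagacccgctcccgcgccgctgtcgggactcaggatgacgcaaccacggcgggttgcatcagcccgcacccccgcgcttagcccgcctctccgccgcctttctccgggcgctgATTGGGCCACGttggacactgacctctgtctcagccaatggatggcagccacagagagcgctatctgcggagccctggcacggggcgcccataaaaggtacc
Hspa5: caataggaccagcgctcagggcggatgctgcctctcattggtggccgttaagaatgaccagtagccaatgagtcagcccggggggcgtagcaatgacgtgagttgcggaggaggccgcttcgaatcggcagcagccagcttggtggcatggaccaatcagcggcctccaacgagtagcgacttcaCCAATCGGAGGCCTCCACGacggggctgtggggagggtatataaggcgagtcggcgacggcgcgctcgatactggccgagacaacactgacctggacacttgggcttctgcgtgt

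Xbp1, Dnajb9, Sdf2l1, Edem1 and Pdia4 held no ERSE, ERSE-II or TGACGTGG in these 300 bases. Dnajb9 held the core ACGTGG, at 108 to 103 bases before the start. A match describes these letters and is neither a measured binding site nor a cause of any level below.

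In pDC, the transcription factor gene Xbp1, the chaperone and co-chaperone genes Hsp90b1, Dnajb9 and Dnajc3, and the degradation gene Herpud1 were higher than in CDP, by 2.08- to 2.78-fold in their lead probe sets, and no lead probe set was lower. Hspa5, the HSP70 chaperone gene of the endoplasmic reticulum, Calr, Pdia4, Sdf2l1 and Edem1 were not called in their lead probe sets. Of the 24 tested member probe sets 13 were higher and 2 lower, where 21.9% of all 17501 probe sets were higher and 26.4% lower. Among lead probe sets 5 of 10 members were higher and 0 lower, against 20.5% higher and 29.8% lower over all 8933 genes. The median difference of the 10 lead probe sets was 0.54, against -0.14 over all genes. The 3′ minus 5′ difference of the β-actin control was 0.84 and 0.94 on the pDC arrays, against 1.23 and 2.11 on the CDP arrays, and its part in these differences was not tested. Granulocyte markers had a mean level of 3.63 and 3.53 on the pDC arrays, against 7.95 and 6.86 on the CDP arrays. Monocyte and macrophage markers were at 7.15 and 8.62 in pDC, against 9.92 and 8.88 in CDP. The part of other cells was not tested either.

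Xbp1 was at 13.34 and 13.09 on the pDC arrays, against 11.94 and 11.55 on the CDP arrays, in its lead probe set 1437223_s_at. Both pDC arrays lay above both CDP arrays, and the difference was 1.47 ± 0.23 (SE), a 2.78-fold higher level (limma adjusted p = 0.00278, n = 2 arrays each). All 4 Xbp1 probe sets were higher, with differences of 1.84 for 1420011_s_at, 1.90 for 1420886_a_at and 1.12 for 1420012_at. The last of these is dim, at 8.29 and 7.22 on the pDC arrays, against 6.69 and 6.57 on the CDP arrays, and its pDC arrays were the farthest apart of the 4 probe sets. Over the 5 cell groups the order of the Xbp1 means was pDC, MPP, in vivo CDP, cDC and CDP, and the 4 groups below pDC lay within 0.47 of each other.

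**Figure D1:**
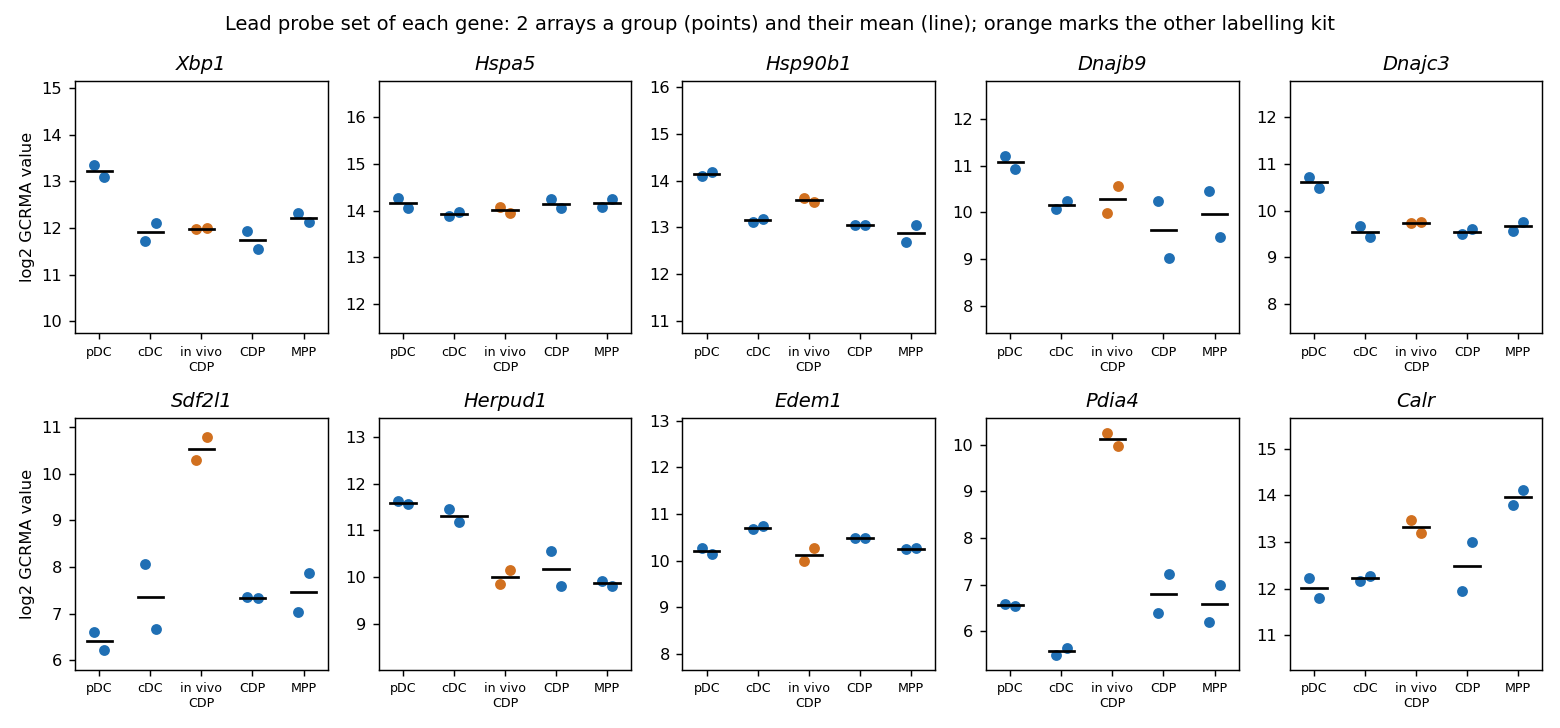
Log2 GCRMA value (vertical axis, the same span in every panel) of the lead probe set of the 10 genes on the 2 arrays of pDC, cDC, in vivo CDP, CDP and MPP (horizontal axis), with the mean as a line. The pDC points lie above all others for Xbp1, Hsp90b1, Dnajb9, Dnajc3 and Herpud1, and the in vivo CDP points, labelled with another kit and drawn in orange, lie above all others for Sdf2l1 and Pdia4.

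Hsp90b1 encodes GRP94, the HSP90 chaperone of the endoplasmic reticulum, which Toll-like receptors and integrins need to fold. It was at 14.11 and 14.18 on the pDC arrays, against 13.05 and 13.06 on the CDP arrays, a difference of 1.09 ± 0.19 (SE, adjusted p = 0.00375, limma). The arrays of each group lay close together and the groups did not overlap. Its other probe set, 1438040_a_at, differed by 1.17 (adjusted p = 0.0118, limma).

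Dnajc3 (P58IPK) is a co-chaperone of the HSP70 chaperone and is also known to inhibit the kinase PERK. Its lead probe set was at 10.73 and 10.48 on the pDC arrays, against 9.49 and 9.60 on the CDP arrays, with a difference of 1.06 ± 0.19 (SE, adjusted p = 0.00489, limma). Of its 5 probe sets 4 were higher, and 1449372_at, at 10.13 and 9.88 on the pDC arrays, against 9.54 and 9.28 on the CDP arrays, was not called (adjusted p = 0.0933, limma). The groups did not overlap in any of the 5, and the share of all probe sets without overlap was not computed.

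Dnajb9 (ERdj4), another co-chaperone of HSPA5 and a known XBP1 target, was at 11.21 and 10.93 on the pDC arrays, against 10.24 and 9.01 on the CDP arrays. The 2 CDP arrays differed by more than 1 on the log2 scale, and the pDC arrays lay above both of them. The difference was 1.45 ± 0.47 (SE, adjusted p = 0.0410, limma), and the call was lost without CDP replicate 2, the lower array (difference 0.83, adjusted p = 0.183, limma), without pDC replicate 1 (adjusted p = 0.152, limma), without pDC replicate 2 (adjusted p = 0.101, limma) and without the filter on low values (adjusted p = 0.217, limma).

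Herpud1, a membrane protein that helps to assemble the complex for degradation of misfolded proteins, was at 11.62 and 11.57 on the pDC arrays, against 10.55 and 9.81 on the CDP arrays. The groups did not overlap, and the difference was 1.42 ± 0.27 (SE, adjusted p = 0.00563, limma). The second probe set differed by 1.36 in the same direction (adjusted p = 0.0115, limma).

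Hspa5 (BiP), the master chaperone that also holds the sensors of the response inactive, was at 14.28 and 14.06 on the pDC arrays, against 14.25 and 14.05 on the CDP arrays. The values interleave, and the difference of 0.02 ± 0.18 (SE) passed no threshold (adjusted p = 0.936, limma). Probe set 1447824_x_at of Hspa5 was lower, at 8.85 and 8.56 on the pDC arrays, against 9.27 and 9.54 on the CDP arrays (difference -0.70, adjusted p = 0.0318, limma). The suffix x_at marks a probe set with probes that also match other sequences.

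Edem1 trims mannose from misfolded glycoproteins and marks them for degradation. Its lead probe set was at 10.28 and 10.15 on the pDC arrays, against 10.48 and 10.48 on the CDP arrays, and was not called (difference -0.27, adjusted p = 0.213, limma). Its probe set 1424065_at was lower, at 9.16 and 8.85 on the pDC arrays, against 9.87 and 9.86 on the CDP arrays (difference -0.86, adjusted p = 0.0139, limma). Both Edem1 probe sets had every pDC array below every CDP array.

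The lectin chaperone gene Calr was at 12.22 and 11.81 on the pDC arrays, against 11.95 and 13.00 on the CDP arrays, so that the CDP arrays lay far apart and the groups overlapped (difference -0.46, adjusted p = 0.323, limma), and without CDP replicate 1 it was called lower (difference -0.99, adjusted p = 0.0360, limma). Sdf2l1, a partner of HSPA5 complexes, was at 6.61 and 6.21 on the pDC arrays, against 7.35 and 7.34 on the CDP arrays (difference -0.93 ± 0.49 SE, adjusted p = 0.155, limma). The disulfide isomerase gene Pdia4 was at 6.59 and 6.55 on the pDC arrays, against 6.39 and 7.23 on the CDP arrays (difference -0.24, adjusted p = 0.611, limma).

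Set against cDC, the other dendritic cell, pDC were higher in Xbp1, Hsp90b1 and Dnajc3. Of the 24 member probe sets 9 were higher and 0 lower, where 11% of all probe sets were higher and 9.79% lower. Among lead probe sets 3 of 10 members were higher and 0 lower, against 11.1% higher and 11.4% lower over all genes, and the median difference was 0.60, against 0.0021 over all genes. The differences of means do not use the CDP arrays. Those arrays were part of the same fit, so they enter the SE, the p-values, the filter and the choice of lead probe sets. The β-actin 3′ minus 5′ difference was 0.84 and 0.94 on the pDC arrays, against 0.69 and 0.84 on the cDC arrays. The 0 lower calls come from limma with 1 member, Edem1 1451218_at, at an unadjusted p of 0.0199 in that direction (difference -0.49, adjusted p = 0.0794, limma). That probe set was called lower without the filter on low values (adjusted p = 0.0190, limma) and with trend and robust settings of eBayes (adjusted p = 0.0434, limma).

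Xbp1 was at 13.34 and 13.09 on the pDC arrays, against 11.72 and 12.11 on the cDC arrays, with no overlap. The difference was 1.30 ± 0.23 (SE, adjusted p = 0.00952, limma), and the probe sets 1420011_s_at and 1420886_a_at differed by 1.35 and 1.48. The dim 1420012_at differed by 0.77 without a call (adjusted p = 0.176, limma). The Xbp1 call was lost without pDC replicate 1 (adjusted p = 0.0690, limma), without cDC replicate 1 (adjusted p = 0.0606, limma) and without the filter (adjusted p = 0.0527, limma).

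Hsp90b1 was at 14.11 and 14.18 on the pDC arrays, against 13.13 and 13.18 on the cDC arrays (difference 0.99 ± 0.19 SE, adjusted p = 0.0116, limma). Dnajc3 was at 10.73 and 10.48 on the pDC arrays, against 9.67 and 9.42 on the cDC arrays (difference 1.06 ± 0.19 SE, adjusted p = 0.0104, limma), and 4 of its 5 probe sets were called. For both genes the pDC arrays stood above the cDC arrays in every probe set. The Hsp90b1 call was lost without any 1 of the 4 arrays (adjusted p between 0.0521 and 0.0666, limma), and the Dnajc3 call without pDC replicate 1 (adjusted p = 0.0742, limma) or cDC replicate 2 (adjusted p = 0.0622, limma).

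Dnajb9 was at 11.21 and 10.93 on the pDC arrays, against 10.07 and 10.24 on the cDC arrays, and was not called (difference 0.92, adjusted p = 0.231, limma). Pdia4 was at 6.59 and 6.55 on the pDC arrays, against 5.50 and 5.65 on the cDC arrays (difference 1.00, adjusted p = 0.101, limma). Herpud1 was at 11.62 and 11.57 on the pDC arrays, against 11.45 and 11.18 on the cDC arrays (difference 0.28 ± 0.27 SE, adjusted p = 0.536, limma). Hspa5 was at 14.28 and 14.06 on the pDC arrays, against 13.88 and 13.97 on the cDC arrays (difference 0.25, adjusted p = 0.413, limma).

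Calr was at 12.22 and 11.81 on the pDC arrays, against 12.17 and 12.27 on the cDC arrays, with overlap and no call (difference -0.20, adjusted p = 0.756, limma). Sdf2l1 was at 6.61 and 6.21 on the pDC arrays, against 8.07 and 6.67 on the cDC arrays (difference -0.96, adjusted p = 0.230, limma), and without cDC replicate 2, the lower array, it was called lower (difference -1.66, adjusted p = 0.0494, limma). Edem1 was at 10.28 and 10.15 on the pDC arrays, against 10.67 and 10.74 on the cDC arrays, in the probe set 1451218_at.

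**Figure D2:**
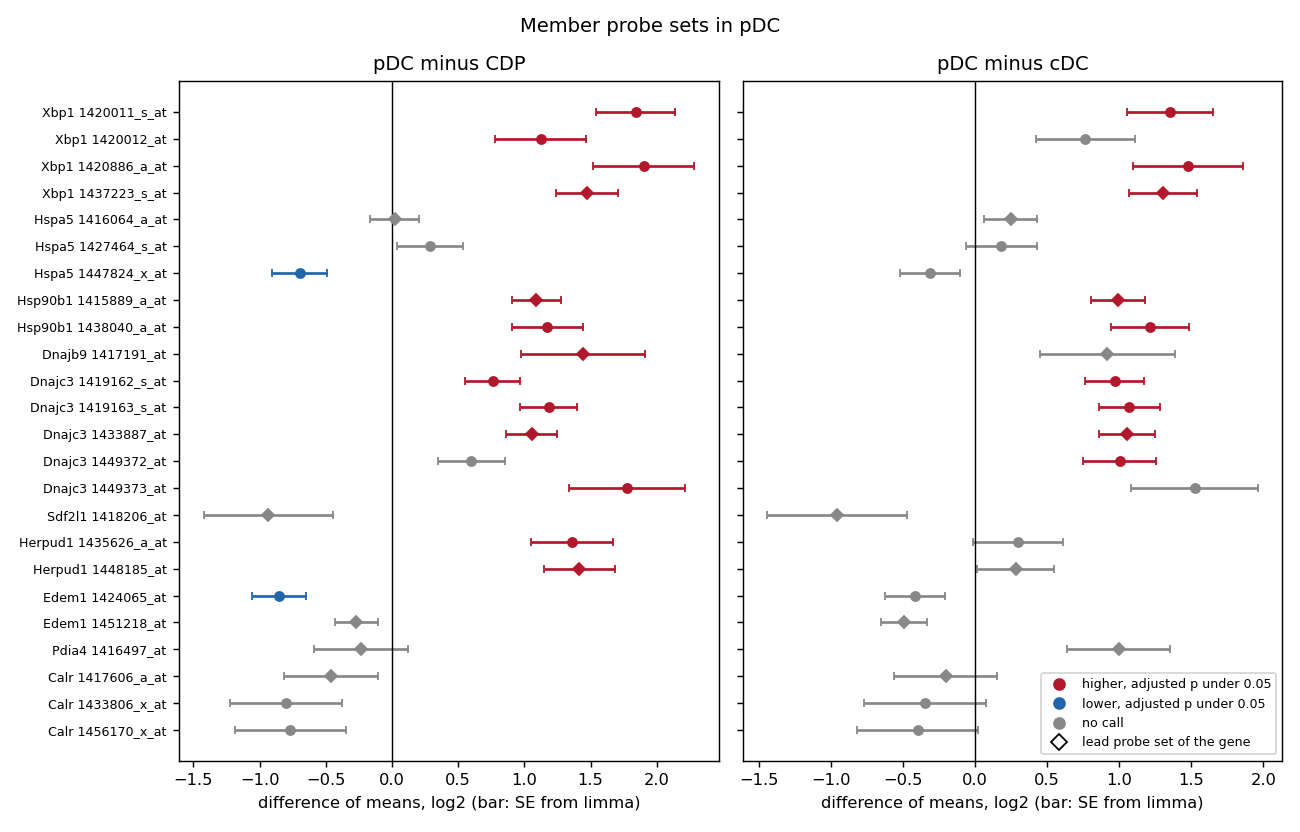
Difference of log2 means with its SE (horizontal axis) for the 24 tested member probe sets (rows), pDC minus CDP on the left and pDC minus cDC on the right. Red points are higher and blue points lower with an adjusted p under 0.05, and diamonds are the lead probe sets. All Xbp1, Hsp90b1 and Dnajc3 probe sets lie right of 0 in both panels.

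With 2 arrays a group these counts depend on single arrays. The 15 calls of pDC against CDP became 8 without pDC replicate 1 or without CDP replicate 2, and the 9 calls of pDC against cDC became 0 without pDC replicate 1, 4 without pDC replicate 2, 3 without cDC replicate 1, and 2 without cDC replicate 2, 1 of these lower.

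The 5 lists of other secretory pathway genes held 105 genes, of which 99 were tested in the cell type fits, with 1 probe set a gene. Against CDP, pDC were higher in 20 (20.2%) and lower in 11 (11.1%) of them, where 20.5% of all genes were higher and 29.8% lower, so the higher share is that of all genes (median difference 0.17, against -0.14 over all genes). Leaving out 1 array gave 19 to 28 calls in place of 31. Against cDC, pDC were higher in 26 (26.3%) and lower in 1 (1.01%), where 11.1% of all genes were higher and 11.4% lower (median 0.42, against 0.0021 over all genes). These 27 calls became 8 to 13 when any 1 of the 4 arrays was left out, and the counts of single lists below were not recomputed without each array. Up to 2 called genes of each list and direction, those of the largest difference in their list, are named. Of 16 UPR sensors and transcription factors 4 were higher and 1 lower than in cDC. Ern1, which encodes IRE1, averaged 10.05 in pDC and 8.60 in cDC (difference 1.45, adjusted p = 0.00429, limma). Creb3l2, a transcription factor of the ATF6 type that raises secretory pathway genes, averaged 8.28 in pDC and 5.41 in cDC (difference 2.87, adjusted p = 0.00288, limma). Atf3, a stress factor downstream of the kinase PERK, was the 1 gene that was lower, at a mean of 3.78 in pDC and 7.65 in cDC, and since it lay under 5 in pDC it was at least 6.26-fold lower.

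Of 24 genes of folding and oxidation 7 were higher and 0 lower in pDC than in cDC. Sil1, the nucleotide exchange factor of HSPA5, averaged 9.96 in pDC and 7.84 in cDC (difference 2.13, adjusted p = 0.000494, limma), and Creld2 averaged 10.70 in pDC and 9.33 in cDC (difference 1.37, adjusted p = 0.0168, limma). Of 17 genes of ER-associated degradation 5 were higher and 0 lower, led by the mannosidase genes Edem3 (11.20 in pDC and 8.92 in cDC, difference 2.29, adjusted p = 0.000314, limma) and Edem2 (difference 1.38, adjusted p = 0.0334, limma). Of 23 genes of translocation and glycosylation 7 were higher and 0 lower, among them Srprb, a subunit of the receptor that docks ribosomes, with a difference of 1.44 (adjusted p = 0.00309, limma), and the signal peptidase subunit Spcs2 with 1.11 (adjusted p = 0.0178, limma). Of 19 genes of transport to the Golgi 3 were higher and 0 lower, and the COPII coat gene Sec24d averaged 9.95 in pDC and 6.75 in cDC (difference 3.20, adjusted p = 0.000621, limma). The cargo receptor gene Lman1 differed by 1.27 (adjusted p = 0.00989, limma).

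Against CDP, the genes with the 2 largest higher calls of their list in pDC, where it had any, were Creb3l2 (2.14), Eif2ak3, which encodes PERK (1.48), Sil1 (2.05), the oxidase gene Ero1b (1.76), Edem2 (1.62), Edem3 (1.31), Sec24d (1.45) and Sec24c (1.05). The lower calls, at most 2 a list by the same rule, were Trib3, Atf3 (at least 5.69-fold lower), Ero1a (-2.34), the glucosidase gene Mogs (-1.38), Sel1l (-1.03), Ube2j2 (-0.67), Srp68 (-0.73), Ssr2 (-0.67) and Kdelr2 (-0.79). Trib3, a pseudokinase gene raised by the PERK branch through ATF4 and CHOP, had a mean of 2.36 in pDC and 10.26 in CDP, a level at least 38.4-fold lower (adjusted p = 9.77e-05, limma). It is measured by an x_at probe set. Edem3, Sec24d, Sil1, Creb3l2 and the IRE1 gene Ern1 were higher in pDC in both comparisons, which share the pDC arrays.

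**Figure D3:**
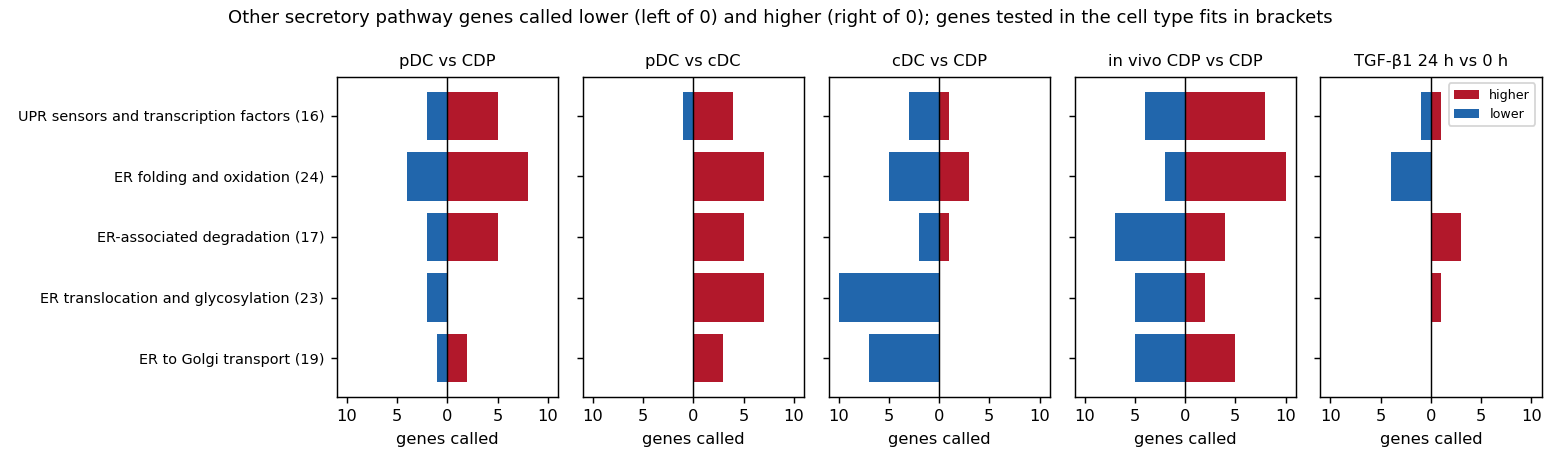
Number of genes called lower (left of 0) and higher (right of 0) in each of the 5 other secretory pathway lists (rows, with the genes tested in the cell type fits in brackets) for 5 comparisons. In pDC against cDC 26 genes lie right of 0 and 1 left of it, and 8 to 13 genes were called when 1 array was left out. In cDC against CDP 5 lie right and 27 left, where 27% of all genes were lower.

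In cDC, Herpud1 was higher and Pdia4 lower than in CDP, and the other 8 members were not called. Of the 24 member probe sets 2 were higher and 1 lower, where 16.6% of all probe sets were higher and 23.7% lower. Among lead probe sets 1 of 10 was higher and 1 lower, against 17.3% higher and 27% lower over all genes. These shares of members lie below the shares of all probe sets. Both this comparison and that of pDC with CDP use the same CDP arrays. The β-actin 3′ minus 5′ difference was 0.69 and 0.84 on the cDC arrays, against 1.23 and 2.11 on the CDP arrays. Its part in these differences was not tested.

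Herpud1 was at 11.45 and 11.18 on the cDC arrays, against 10.55 and 9.81 on the CDP arrays, with no overlap (difference 1.13 ± 0.27 SE, adjusted p = 0.0167, limma), and its second probe set differed by 1.06. Pdia4 was at 5.50 and 5.65 on the cDC arrays, against 6.39 and 7.23 on the CDP arrays (difference -1.23 ± 0.36 SE, adjusted p = 0.0329, limma). The Pdia4 values are near the limit of 5 for a measured level. Without cDC replicate 1 or CDP replicate 2 no member was called, and without cDC replicate 2 only Herpud1 was.

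Xbp1 was at 11.72 and 12.11 on the cDC arrays, against 11.94 and 11.55 on the CDP arrays, and the values interleave (difference 0.17 ± 0.23 SE, adjusted p = 0.597, limma). Hspa5 was at 13.88 and 13.97 on the cDC arrays, against 14.25 and 14.05 on the CDP arrays (difference -0.23, adjusted p = 0.366, limma). Hsp90b1 differed by 0.10 and Dnajc3 by 0.00, both with an SE of 0.19.

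Dnajb9 was at 10.07 and 10.24 on the cDC arrays, against 10.24 and 9.01 on the CDP arrays (difference 0.53, adjusted p = 0.405, limma). Sdf2l1 was at 8.07 and 6.67 on the cDC arrays, against 7.35 and 7.34 on the CDP arrays (difference 0.02, adjusted p = 0.982, limma). Calr was at 12.17 and 12.27 on the cDC arrays, against 11.95 and 13.00 on the CDP arrays (difference -0.26, adjusted p = 0.602, limma). These 3 genes overlapped between the groups. The lead Edem1 probe set was at 10.67 and 10.74 on the cDC arrays, against 10.48 and 10.48 on the CDP arrays, with no overlap and no call (difference 0.23, adjusted p = 0.307, limma).

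Of the other 99 secretory pathway genes 5 (5.05%) were higher and 27 (27.3%) lower in cDC, where 17.3% of all genes were higher and 27% lower, so the lower share is that of all genes (median difference -0.30, against -0.16 over all genes). Leaving out 1 array gave 17 to 21 calls in place of 32. Of 23 genes of translocation and glycosylation 10 were lower and 0 higher, with the signal recognition particle gene Srp68 at -1.30 and Srprb at -1.72. Of 19 genes of transport to the Golgi 7 were lower and 0 higher, with Sec24d at -1.75 and Lman1 at -1.44. Of 24 genes of folding and oxidation 5 were lower and 3 higher, and the oxidase genes moved apart: Ero1a averaged 8.79 in cDC and 10.70 in CDP (difference -1.91, adjusted p = 0.0354, limma), and Ero1b averaged 10.68 in cDC and 8.81 in CDP (difference 1.87, adjusted p = 0.00144, limma). The prolyl isomerase gene Ppib was higher by 1.06, and Fkbp11 at least 1.22-fold lower. Of 17 degradation genes 1 was higher, Ngly1 (0.67), and 2 lower, Edem3 (-0.98) and Ube2j2 (-0.59). Of 16 sensors and factors 1 was higher, Eif2ak3 (0.98), and 3 lower, among them Atf4 (-1.16) and Trib3, at least 38.4-fold lower.

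In CDP, no member probe set passed the threshold against MPP, where 2.81% of all probe sets were higher and 2.11% lower (3.17% and 2.72% of all genes). At an unadjusted p under 0.05 limma gave 3 member probe sets, the 3 of Calr. The share of all probe sets at that unadjusted threshold was not computed. The lead Calr probe set was at 11.95 and 13.00 on the CDP arrays, against 13.80 and 14.12 on the MPP arrays, a difference of -1.48 ± 0.36 (SE, adjusted p = 0.0782, limma). The groups did not overlap, and the CDP arrays lay 1.05 apart. Without CDP replicate 2 the lead Calr probe set passed the threshold (difference -2.01, adjusted p = 0.0249, limma). Xbp1 was at 11.94 and 11.55 on the CDP arrays, against 12.31 and 12.12 on the MPP arrays (difference -0.47, adjusted p = 0.379, limma). Among the other 99 pathway genes 1 was higher, Atf3 (at least 5.69-fold, MPP under 5), and 1 lower, Fkbp11, a peptidyl-prolyl isomerase gene, which averaged 5.29 in CDP and 8.53 in MPP (difference -3.25, adjusted p = 0.00313, limma). Markers of other cells moved with this comparison. The 6 mast cell and basophil markers had a mean level of 3.55 and 3.39 on the CDP arrays, against 8.53 and 7.83 on the MPP arrays, with 1 of 6 above 5 on both CDP arrays and 5 of 6 on both MPP arrays. The 6 granulocyte markers had a mean level of 7.95 and 6.86 on the CDP arrays, against 11.92 and 11.25 on the MPP arrays, with 3 of 6 above 5 in CDP and 6 in MPP. The β-actin 3′ minus 5′ difference was 1.23 and 2.11 on the CDP arrays, against 1.91 and 2.04 on the MPP arrays. Of the CDP arrays, replicate 2, at 2.11, had the higher Calr value. The part of other cells and of 5′ signal in the Calr and Fkbp11 differences was not tested. The other lead probe sets of members differed by -0.33 (Dnajb9) to 0.32 (Herpud1), and of these only Edem1 had groups that did not overlap (difference 0.23, adjusted p = 0.563, limma).

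In vivo CDP differed from cultured CDP in Pdia4 and Sdf2l1 by more than any member differed in another comparison. Extraction and labelling kits also differed, with 50 ng of in vivo RNA labelled by the 3′ IVT Express kit and 1 µg of RNA from the cultured cells by the one-cycle kit, so that origin and kit cannot be told apart. Pdia4 was at 10.25 and 9.98 on the in vivo CDP arrays, against 6.39 and 7.23 on the CDP arrays (difference 3.31 ± 0.34 SE, 9.91-fold, adjusted p = 0.000316, limma). Sdf2l1 was at 10.29 and 10.79 on the in vivo CDP arrays, against 7.35 and 7.34 on the CDP arrays (difference 3.19 ± 0.46 SE, 9.14-fold, adjusted p = 0.00147, limma). Neither gene overlapped between groups, and all 8 one-cycle arrays lay at or under 7.23 for Pdia4 and 8.07 for Sdf2l1. Cultured CDP of the TGF-β1 set at 0 h, labelled from 250 ng with the 3′ IVT Express kit and on another scale, were at 9.96 and 9.83 for Pdia4 and at 11.25 and 11.40 for Sdf2l1. The part of the kit in these differences was not tested.

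Hsp90b1 was at 13.63 and 13.55 on the in vivo CDP arrays, against 13.05 and 13.06 on the CDP arrays (difference 0.54 ± 0.18 SE, adjusted p = 0.0416, limma), while its probe set 1438040_a_at was at 10.93 and 11.38 on the in vivo CDP arrays, against 11.92 and 11.20 on the CDP arrays (difference -0.41, adjusted p = 0.268, limma). The Hsp90b1 call was lost without any 1 of the 4 arrays. The probe sets of Dnajc3 disagreed in the same way: 1449372_at was higher by 1.02 (adjusted p = 0.0108, limma), 1419162_s_at was lower with a difference of -0.65 (adjusted p = 0.0305, limma), and the lead probe set differed by 0.19 without a call. In all 4 member probe sets were higher and 1 lower, where 23.1% of all probe sets were higher and 19.7% lower, and 3 of 10 lead probe sets were higher and 0 lower, against 25.8% and 18.8% of all genes. The member shares are below the background in both directions for probe sets. Xbp1 was at 11.97 and 12.00 on the in vivo CDP arrays, against 11.94 and 11.55 on the CDP arrays, and was not called (difference 0.24, adjusted p = 0.413, limma).

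Calr was at 13.47 and 13.19 on the in vivo CDP arrays, against 11.95 and 13.00 on the CDP arrays, with no overlap and no call (difference 0.85, adjusted p = 0.0757, limma). It was called with trend and robust settings of eBayes (adjusted p = 0.0463, limma) and without CDP replicate 2 (difference 1.38, adjusted p = 0.0109, limma). Edem1 was at 9.99 and 10.27 on the in vivo CDP arrays, against 10.48 and 10.48 on the CDP arrays (difference -0.35, adjusted p = 0.132, limma). Dnajb9 was at 9.99 and 10.56 on the in vivo CDP arrays, against 10.24 and 9.01 on the CDP arrays (difference 0.65, adjusted p = 0.284, limma). Herpud1 was at 9.84 and 10.16 on the in vivo CDP arrays, against 10.55 and 9.81 on the CDP arrays (difference -0.18, adjusted p = 0.616, limma). Hspa5 was at 14.09 and 13.96 on the in vivo CDP arrays, against 14.25 and 14.05 on the CDP arrays (difference -0.13, adjusted p = 0.600, limma). The groups overlapped for Dnajb9, Herpud1 and Hspa5 and not for Edem1.

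Among the other 99 pathway genes 29 (29.3%) were higher and 23 (23.2%) lower in in vivo CDP, where 25.8% of all genes were higher and 18.8% lower, so both shares are near those of all genes. Leaving out 1 array gave 26 to 38 calls in place of 52. The largest calls were Trib3, at least 38.4-fold lower, Ppp1r15a, which encodes the phosphatase subunit GADD34 (difference 3.83), Ero1a (-2.54), Txndc5 (2.09), Ddost (2.05), Syvn1 (2.03), Cnpy3 (2.00) and Atf6b (1.90). Progenitor markers had a mean level of 11.67 and 11.70 on the in vivo CDP arrays, against 9.45 and 9.53 on the CDP arrays, and granulocyte markers 10.70 and 9.30, against 7.95 and 6.86, with all 6 granulocyte markers above 5 in in vivo CDP and 3 of 6 in CDP. The part of other cells in these differences was not tested.

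With TGF-β1, Xbp1 was higher and Hspa5 lower at 24 h than at 0 h, and no member was called at an earlier time. The 24 h comparison gave 2 higher and 3 lower of 24 member probe sets, where 7.77% of all 26606 probe sets were higher and 6.39% lower. Among lead probe sets 1 of 10 was higher and 1 lower, against 9.56% and 7.45% of all 12676 genes, so both shares are near those of all genes. The median difference was -0.23, against -0.0019 over all genes. Leaving out any 1 of the 4 arrays of 0 h and 24 h left 0 calls. Without the 3 arrays of low 5′ signal 24 h holds 1 array, so no count of calls is given for that fit.

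Xbp1 was at 11.54 and 11.46 at 0 h, at 11.95 and 11.61 at 4 h, at 11.50 and 11.72 at 8 h, at 12.03 and 11.96 at 12 h and at 12.37 and 12.17 at 24 h. Both arrays of 4 h, of 12 h and of 24 h lay above every array of 0 h, and those of 8 h overlapped with 0 h. The difference of 24 h from 0 h was 0.76 ± 0.18 (SE, 1.70-fold, adjusted p = 0.0278, limma), and 0.67 without the 3 arrays of low 5′ signal. The probe set 1420011_s_at differed by 0.88 (adjusted p = 0.0177, limma), and 1420886_a_at and 1420012_at by 0.57 and 0.72 without a call. Without the 3 arrays 1420011_s_at differed by 0.85, 1420886_a_at by 0.80 and 1420012_at by 0.44. At 12 h the lead probe set differed by 0.49 with all arrays, with no call, and by 0.46 without the 3.

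Hspa5 was at 13.26 and 13.16 at 0 h, at 13.41 and 13.13 at 4 h, at 12.91 and 12.76 at 8 h, at 12.78 and 12.83 at 12 h and at 12.65 and 12.54 at 24 h. From 8 h on, every array lay below both 0 h arrays. The difference of 24 h from 0 h was -0.61 ± 0.16 (SE, adjusted p = 0.0443, limma), and -0.67 without the 3 arrays of low 5′ signal. Quantile normalisation ended this call (difference -0.55, adjusted p = 0.0908, limma). The probe set 1427464_s_at was 2.01-fold lower (adjusted p = 0.0495, limma), and without the 3 arrays it differed by -0.85. The probe set 1447824_x_at differed by -0.06 with all arrays, with no call, and by -0.28 without the 3. At 12 h the lead probe set differed by -0.40 with all arrays, with no call, and by -0.38 without the 3.

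Hsp90b1 probe set 1438040_a_at was at 11.27 and 11.30 at 0 h, at 11.29 and 11.27 at 4 h, at 10.91 and 10.93 at 8 h, at 10.54 and 10.78 at 12 h and at 10.60 and 10.76 at 24 h. The arrays of 8, 12 and 24 h lay below those of 0 and 4 h, and the difference of 24 h from 0 h was -0.61 (adjusted p = 0.0375, limma). Without the 3 arrays of low 5′ signal the difference of 24 h from 0 h was -0.53. The lead Hsp90b1 probe set differed by -0.44 without a call (adjusted p = 0.220, limma), and by -0.56 without the 3 arrays. Dnajb9 was at 9.31 and 8.80 at 24 h, against 8.37 and 8.18 at 0 h, with no overlap and no call (difference 0.78, adjusted p = 0.0854, limma). Without the 3 arrays Dnajb9 differed by 0.53. Dnajc3, Herpud1 and Edem1 differed at 24 h by 0.16, -0.03 and 0.07 with all arrays, with no call. Without the 3 arrays they differed by -0.03, 0.27 and 0.15.

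**Figure D4:**
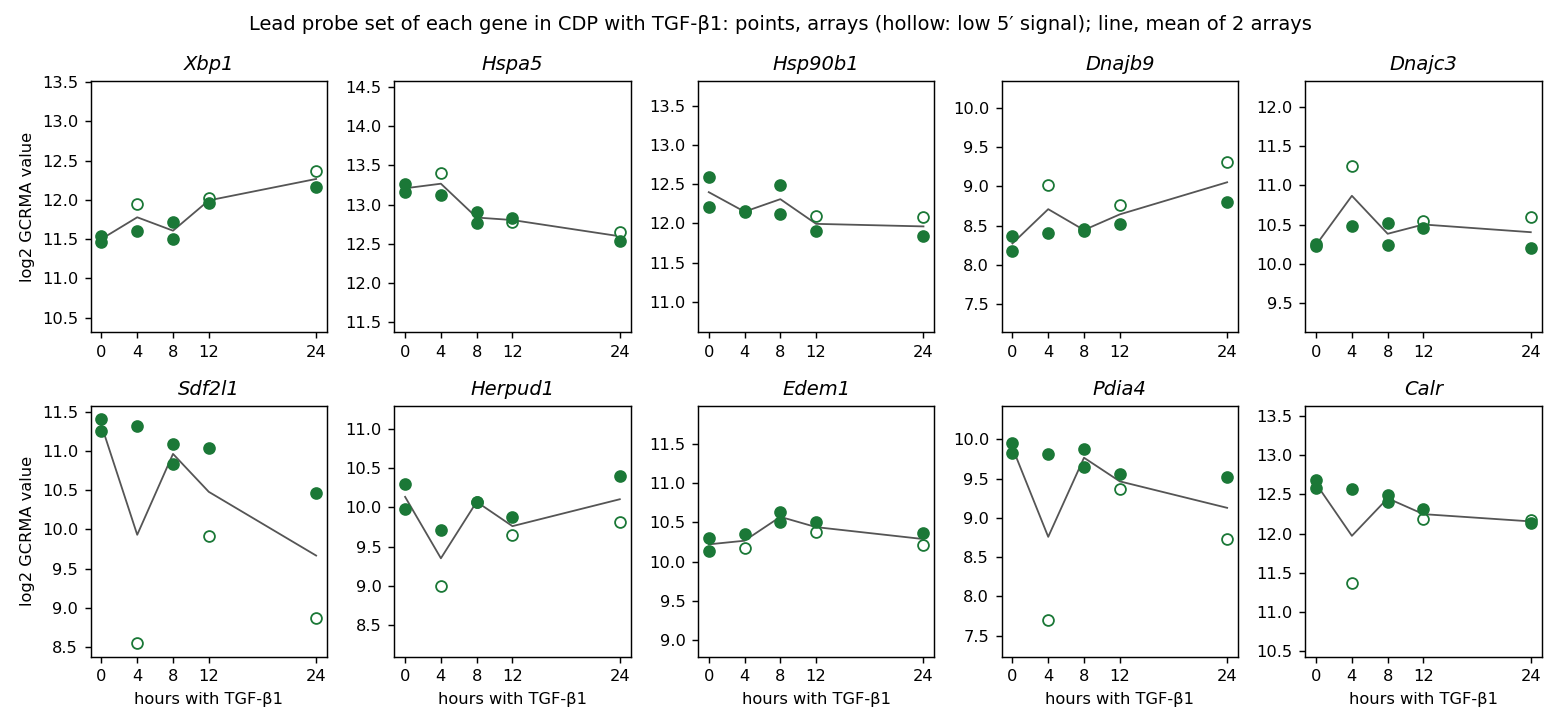
Log2 GCRMA value (vertical axis, the same span in every panel) of the lead probe set of the 10 genes against hours with TGF-β1 (horizontal axis), with 2 arrays a time as points and their mean as a line. Hollow points are the 3 arrays of low 5′ signal. Xbp1 ends above and Hspa5 below its 0 h arrays, and the low points of Sdf2l1, Pdia4 and Calr at 4 h are hollow.

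Sdf2l1 and Pdia4 were low on the arrays of low 5′ signal. Sdf2l1 was at 11.25 and 11.40 at 0 h, at 8.55 and 11.31 at 4 h, at 10.83 and 11.09 at 8 h, at 9.92 and 11.04 at 12 h and at 8.87 and 10.46 at 24 h. Pdia4 was at 9.96 and 9.83 at 0 h, at 7.70 and 9.81 at 4 h, at 9.88 and 9.65 at 8 h, at 9.37 and 9.56 at 12 h and at 8.73 and 9.52 at 24 h. In each pair of 4, 12 and 24 h the lower array was replicate 1, whose Gapdh 3′ minus 5′ difference was above 2. Without these 3 arrays the difference of Sdf2l1 at 24 h was -0.86, against -1.66 with them, which was not called (adjusted p = 0.268, limma). That of Pdia4 was -0.37, against -0.77 with them (adjusted p = 0.468, limma). Calr at 4 h was at 11.37 on replicate 1 and at 12.57 on replicate 2, beside 12.69 and 12.58 at 0 h, and it differed by -0.66 at 4 h and by -0.48 at 24 h with all arrays. Without the 3 arrays Calr differed by -0.07 at 4 h and by -0.49 at 24 h.

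**Figure D5:**
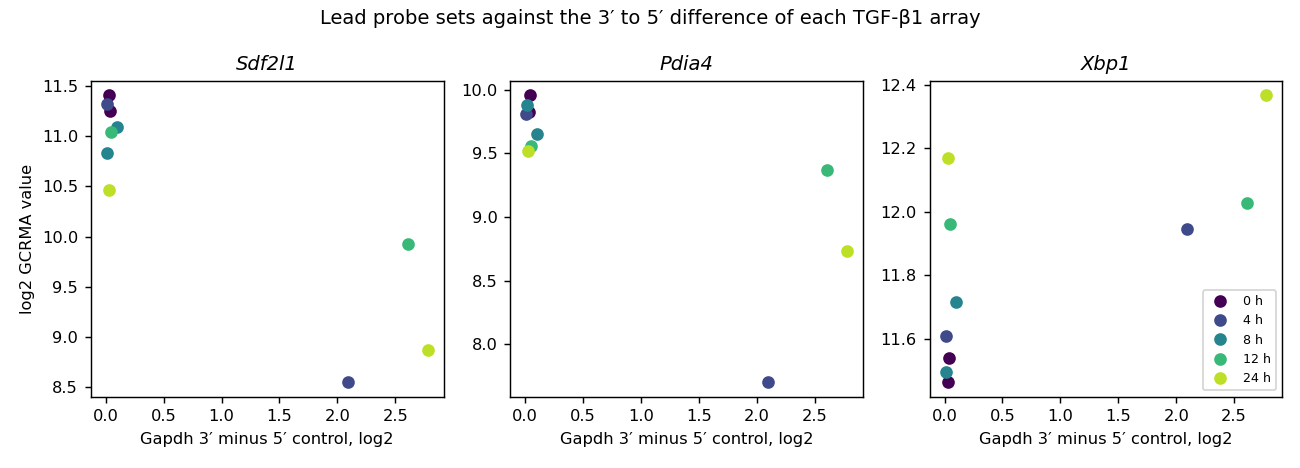
Log2 GCRMA value of the lead probe sets of Sdf2l1, Pdia4 and Xbp1 (vertical axes, each its own span) against the Gapdh 3′ minus 5′ difference (horizontal axis, log2) on the 10 TGF-β1 arrays, coloured by hours. The 3 arrays right of 2 are the lowest for Sdf2l1 and Pdia4, and for Xbp1 they are at 11.95, 12.03 and 12.37.

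At 4 h, 0 of 24 member probe sets were called, where 0.252% of all probe sets were higher and 0.0263% lower (0.371% and 0.0394% of genes), and limma gave 4 members at an unadjusted p under 0.05. Those 4 were Xbp1 1420011_s_at, both Herpud1 probe sets and Dnajc3 1449372_at. The percentages are of calls by adjusted p, and the share of all probe sets at the unadjusted threshold was not computed. Herpud1 was at 8.99 and 9.71 at 4 h, against 9.98 and 10.29 at 0 h (difference -0.78, adjusted p = 0.642, limma). Its lower array at 4 h is 1 of the 3 of low 5′ signal, and without these the difference was -0.42. Sdf2l1 and Pdia4 at 4 h differed by -1.39 and -1.14 with all arrays and by -0.01 and -0.08 without the 3. Without them the spread comes from 0 h and 8 h only, so no count of calls is given for that fit. Leaving out replicate 2 of 4 h, which keeps the array of low 5′ signal, gave 5 calls.

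At 8 h, 0 of 24 were called, where 0.56% were higher and 0.117% lower (0.797% and 0.134% of genes), and 1, Hsp90b1 1438040_a_at, had an unadjusted p under 0.05. At 12 h, 0 of 24 were called, where 2.07% were higher and 0.872% lower (2.82% and 1.07% of genes). An unadjusted p under 0.05 (limma) was reached by 5, namely Xbp1 1437223_s_at and 1420011_s_at, Hspa5 1416064_a_at and 1427464_s_at and Hsp90b1 1438040_a_at. The percentages at 8 and 12 h are of calls by adjusted p. The share of all probe sets at the unadjusted threshold was not computed. The moderated F-test over all times called 0 of 24 member probe sets and 5.74% of all probe sets, and gave 6 members when replicate 2 of 4 h was left out. No count of calls is given for the fit without the 3 arrays of low 5′ signal. At 12 h Sdf2l1 differed by -0.85 with all arrays and by -0.29 without the 3, and the other lead probe sets moved less.

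Among the other pathway genes, 0 of 100 were called at 4, 8 or 12 h. At 24 h 5 were higher and 5 lower, where 9.56% of all genes were higher and 7.45% lower, and leaving out 1 array gave 0 to 6 calls. Higher were the degradation genes Ngly1 (1.03) and Os9 (1.01), the oligosaccharyltransferase gene Stt3b (0.96, adjusted p = 0.00511, limma) and Creb3l2 (1.12), and lower were Atf3 (-0.96), Mogs (-1.29) and Fkbp11 (-1.93). Of 24 genes of folding and oxidation 4 were lower and 0 higher. Without the 3 arrays of low 5′ signal, which leaves 1 array at 24 h, Creb3l2 differed by 0.86. The cDC markers had a mean level of 8.43 and 8.54 at 24 h, against 6.71 and 6.42 at 0 h. Monocyte and macrophage markers were at 7.56 and 7.84 at 24 h, against 8.98 and 8.86 at 0 h. Granulocyte markers were at 6.61 and 6.94 at 24 h, against 7.83 and 7.88 at 0 h. The part of a change in the mix of cells in the gene differences was not tested.

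The lead probe sets of the 10 genes were also set against each other in pairs. Over the 10 cell type arrays the Pearson correlation between pairs of lead probe sets had a median of -0.04 over 45 pairs and ran from -0.85 to 0.89. Over the 10 TGF-β1 arrays it had a median of -0.20 and ran from -0.93 to 0.94. The arrays share their groups and, in part, their labelling, and the values are given as a description. In the TGF-β1 set the lowest value was that of Dnajb9 with Sdf2l1 and the highest that of Pdia4 with Calr. Sdf2l1, Pdia4 and Calr were lowest on replicate 1 of 4 h, 1 of the 3 arrays of low 5′ signal. The part of these 3 arrays in the correlations was not tested.

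The genes whose lead probe sets were most like Xbp1 over the 10 cell type arrays, of 7876 compared, were Bcdin3d (Pearson r = 0.98), Tigd2 (0.96), Ets1 (0.95), C030034I22Rik (0.95) and Blcap (0.95). Those most like Hspa5 were Pccb (0.83), Atpsckmt (0.82), Cnpy2 (0.82), Manf (0.81) and Senp8 (0.80). The lead Hspa5 probe set spanned only 0.40 over these arrays, from 13.88 to 14.28, and was called in no cell type comparison. Its ranking may therefore follow array-to-array spread. The compared genes had to pass a minimum range that Hspa5 itself did not reach. Over the 10 TGF-β1 arrays, of 5716 genes, the closest to Xbp1 were 2310001H17Rik, Pttg1, Itpripl2, Bscl2 and Tcn2 (r between 0.97 and 0.98), and the closest to Hspa5 were BC003965, Pole2, Gnat2, Pus7 and Pla2g4a (r between 0.97 and 0.98). Over the TGF-β1 arrays Xbp1 spanned 0.90 and Hspa5 0.87, also under the minimum range of the compared genes. No gene was among the 5 closest to the same member in both sets of arrays.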

How the data were processed

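The authors' deposited values are log2 probe set values of an Affymetrix mouse array, and GCRMA is named in the submitters' processing notes; background correction, summary and batches of arrays are not given beyond that in the sources used here. From these values, 64 array controls were left out and limma 3.58.1 (R 4.3.3, lmFit and eBayes) was fitted to 45037 probe sets in 3 fits, over the 8 arrays of pDC, cDC, CDP and MPP, over these with in vivo CDP, and over the 10 TGF-β1 arrays. Probe sets above 5 on at least 2 arrays of a fit were tested, with Benjamini-Hochberg adjustment over all of them. The number of arrays limits the precision. Gene names come from the platform annotation of 2016, and 932 probe sets with several symbols were left unnamed. No 2 arrays were identical. The fit was tested on simulated data. The members and lists were chosen with earlier results of these data known. The lead probe set of each member is described in every cell type comparison, with other member probe sets where their call differs, and of the other lists up to 2 called genes in each direction, list and comparison, by size of difference, are named. "At least" folds set the mean of the brighter group against 5. Promoters are RefSeq's (GRCm38.p6); protein sequences were not used here. Alternatives covered the filter, centring, quantile normalisation, a floor of 5, the variance model, the arrays in the fit, single probe sets, the replicate number, and left-out arrays.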

Additional observations from a re-analysis of the deposited data

How the results depend on the processing

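None of the results changed direction with a call on both sides under the alternatives run. Of 1206 values of single genes under an alternative, 1154 kept their side of the threshold, 35 lost a call and 17 gained one, and the cause was not tested. Most of these values belong to genes without a call in the comparison, so the 1154 are mainly non-calls that stayed non-calls. Only the few called genes can lose a call, so the 35 losses fall on those alone. The 1154 are thus no measure of how stable the calls are. Without a filter on low values, which tests more probe sets, the member calls were 0 for cDC against CDP, 8 for pDC against CDP and 3 for pDC against cDC, and the other pathway genes called were 0 for CDP against MPP and 34 for in vivo CDP against CDP. With 1 probe set a gene, which tests 10 members, the calls were 5 for pDC against CDP, 3 for pDC against cDC, 3 for in vivo CDP and 2 at 24 h of TGF-β1. For CDP against MPP, eBayes with trend and robust settings gave 1 member, and adding in vivo CDP to the fit gave 1 member and 4 pathway genes. At 24 h, quantile normalisation gave 2 members and trend and robust settings 3. At 12 h, quantile normalisation and a floor of 5 each gave 1 pathway gene. With the Gapdh 3′ minus 5′ difference as a covariate, 2 pathway genes were called at 12 h and 17 at 24 h, and the F-test called 3 members.

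Replicate numbers run from 1 to 2 only, and no source says that a number marks a shared culture or day. The change between replicates correlated between groups by -0.02 to 0.58 over the cell type arrays and by 0.15 to 0.83 over the TGF-β1 arrays. A replicate block gave 1 member and 2 pathway genes at 12 h, 26 pathway genes at 24 h and 1 member in the F-test, and it gave calls for Dnajb9 at 24 h (adjusted p = 0.0187, limma) and for Pdia4 in pDC against cDC (adjusted p = 0.0473, limma).

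Leaving out 1 array at a time gave member calls of 0 to 2 for CDP against MPP, 0 to 3 for cDC against CDP, 8 to 16 for pDC against CDP, 0 to 4 for pDC against cDC, 2 to 5 for in vivo CDP, 0 to 5 at 4 h, 0 at 8, 12 and 24 h, and 0 to 6 in the F-test. Other pathway genes called ran from 1 to 2, 17 to 21, 19 to 28, 8 to 13 and 26 to 38 in the cell type comparisons in the same order, from 0 to 11 at 4 h, 0 at 8 and 12 h and 0 to 6 at 24 h. A group left with 1 array is assumed to vary like the others.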
